A study of Mus musculus with 35 samples.

Results

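The matrix metalloproteinases (MMPs) Mmp2, Mmp3, Mmp9, Mmp10, Mmp13 and Mmp14 and the tissue inhibitors of metalloproteinases Timp1, Timp2 and Timp3 were read out of the gene count files by symbol, which gave 9 genes of the 24421 listed. They were measured in 35 RNA-seq libraries of mouse embryonic fibroblasts (MEFs) that carried 1 floxed and 1 deleted allele of Nelfb (genotype Nelfb flox/-), grown in DMEM with 10% FBS. The floxed allele is removed by Cre recombinase, delivered with an adenovirus (Ad-Cre); a GFP adenovirus (Ad-GFP) served as the control. Nelfb encodes a subunit of the negative elongation factor (NELF), the complex that holds RNA polymerase II in the promoter-proximal pause.

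The study compared populations and clones. In the populations, cells received the empty pLenti vector (EV) or pLenti with NELFB as wild type (WT), MT194, MT486 or DMT, whose label names both mutants, and RNA was taken 7 days after Ad-Cre (Ad-Cre-GFP in the labels) or Ad-GFP, with 2 libraries in each of the 10 groups. The study used MT194 as a NELFB mutant deficient in binding NELFA and NELFC, and MT486 as one deficient in binding NELFE. The 15 clones were stable single clones picked after Ad-Cre, 3 in each of 5 groups: WT, MT194 and MT486 from pLenti, and WT(N48) and Δ-C60 from pBabe. Δ-C60 lacks the C-terminal part of NELFB; the labels do not explain N48. By their labels all 15 clones had received Ad-Cre and NELFB, and no EV clones are among them; a clone group holds 3 colonies whose differences include those between colonies. The 20 population libraries held 17969149 to 29080007 reads assigned to genes and the 15 clone libraries 18413284 to 27816723. Levels are given in CPM (counts scaled to library size), scaled separately for populations and clones, so a level in a population and one in a clone are set side by side without a test.

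MMPs are zinc endopeptidases that cut collagens and other proteins of the extracellular matrix. Most are secreted as inactive proenzymes, while Mmp14 encodes a membrane-anchored enzyme that activates proMMP2 at the cell surface with the help of TIMP2. TIMPs bind the active site of the proteases and block it, and TIMP3 is the member that stays bound to the matrix and also inhibits proteases of the ADAM and ADAMTS families. Fibroblasts are a main source of both families in connective tissue.

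Mmp13, Mmp3 and Mmp10 are neighbours. In the mouse genome build GRCm38 (mm10 in the study), Mmp13 lies at chr9:7272514-7283331, Mmp3 at chr9:7445822-7455975 and Mmp10 at chr9:7502352-7510240, all on the plus strand. They belong to a cluster of 10 MMP genes that spans chr9:7272514-7699585 and also holds Mmp12, Mmp1b, Mmp1a, Mmp8, Mmp27, Mmp20 and Mmp7. Mmp13 encodes a collagenase, and Mmp3 and Mmp10 encode the stromelysins. The 250 bases before the RefSeq start of each of these 3 genes (GRCm38.p6, plus strand, 5′ to 3′) are shown because Mmp3 and Mmp13 were low together in the clones described below. Their windows are chr9:7272264-7272513 for Mmp13, chr9:7445572-7445821 for Mmp3 and chr9:7502092-7502341 for Mmp10. Capitals mark the AP-1 letters (TGAGTCA or TGACTCA) and the TATA box letters (TATAAA).
Mmp13: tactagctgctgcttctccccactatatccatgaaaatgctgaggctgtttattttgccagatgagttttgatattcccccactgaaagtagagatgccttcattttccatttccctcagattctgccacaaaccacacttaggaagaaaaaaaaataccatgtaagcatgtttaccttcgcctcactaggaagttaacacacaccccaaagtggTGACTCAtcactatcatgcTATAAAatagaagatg
Mmp3: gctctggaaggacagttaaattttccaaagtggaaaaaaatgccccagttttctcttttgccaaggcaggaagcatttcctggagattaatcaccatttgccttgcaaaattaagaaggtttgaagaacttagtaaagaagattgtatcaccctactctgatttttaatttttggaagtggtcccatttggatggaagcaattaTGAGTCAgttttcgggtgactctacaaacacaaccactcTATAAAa
Mmp10: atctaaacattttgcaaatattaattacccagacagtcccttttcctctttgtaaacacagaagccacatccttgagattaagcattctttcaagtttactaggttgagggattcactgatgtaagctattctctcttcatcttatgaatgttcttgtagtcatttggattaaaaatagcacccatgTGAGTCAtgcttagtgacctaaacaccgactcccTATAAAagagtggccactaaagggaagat
Each of the 3 holds both motifs. Among 32851 RefSeq promoter windows of 300 bases (250 before the start and 50 after), 5.2% held the AP-1 letters on either strand and 13.6% held TATAAA on either strand. The windows of Mmp14, Timp1, Timp2 and Timp3 held neither, and each held the GC box letters GGGCGG on one strand or the other, as did 35.7% of all windows. These matches describe the letters and say nothing of binding. The promoters of Mmp2 and Mmp9 are named only.

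The remaining 6 genes are spread over the genome. Mmp2, which encodes gelatinase A, lies at chr8:92827291-92853420, Mmp9, which encodes gelatinase B, at chr2:164940780-164955850, and Mmp14 at chr14:54431612-54445364. Timp1 lies at chrX:20870166-20874735, Timp2 at chr11:118301069-118355740 on the minus strand, and Timp3 at chr10:86300372-86349506. Timp3 sits inside Syn3, a synapsin gene on the other strand, and 1733 of the exonic bases of Timp3 overlap exons of Syn3. Whether the counting used strand is not given in the sources used here, so reads from that stretch could have been lost to Timp3 or assigned to Syn3. Syn3 averaged 4.46 to 6.29 CPM in the population groups, with 5.78 CPM in EV with Ad-GFP and 6.22 CPM in EV with Ad-Cre. Of the 50-base stretches of Mmp3 and Mmp10, 8.39% and 8.37% also occur in other genes, nearly all of them in each other, so a small part of their reads could not be placed uniquely.

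Nelfb was checked first, since its reads test the labels; they come from the endogenous gene and from the introduced one together. In the EV populations Nelfb was at 46.1 and 39.5 CPM with Ad-GFP and at 7.97 and 5.46 CPM with Ad-Cre. The fall by 2.67 on the log2 scale (SE 0.215, adjusted p = 2.53e-05) matches the labels of these 4 libraries. The 16 libraries with introduced NELFB stood between 60.5 CPM (WT, Ad-Cre, replicate 2) and 208 CPM (DMT, Ad-Cre, replicate 2). Among the clones, Nelfb was at 10.3 CPM in the library labelled WT clone 1 and at 15.5 CPM in that labelled WT clone 3, against 109 CPM in the library labelled WT clone 2 and 56.3 to 247 CPM in the other 12 clones. These 2 libraries go against their label as NELFB-expressing clones, so the fold changes given below for Timp1, Timp2, Timp3, Mmp2 and Mmp14 against the WT clones are given with and without them.

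Most fibroblast markers were present, but not all and not in every clone. Col1a1 stood at 3148 to 8539 CPM in the populations and 1491 to 5619 CPM in the clones, and Pdgfra at 802 to 2533 CPM in the populations and 5.48 to 989 CPM (median 419) in the clones. Lum, the lumican gene, reached at most 3.17 CPM in the populations and had no read in 9 of 15 clones. Thy1, a surface marker of many fibroblasts, had no read in 13 of 20 populations and in 11 of 15 clones, and reached at most 0.16 CPM. Of the markers of other cell types, Epcam and Krt8 (epithelium) reached at most 0.148 CPM, Cdh5 and Emcn (endothelium) at most 0.64 CPM, and Ptprc and Adgre1 (macrophages) at most 0.12 CPM in any library. Other genes of these lists were detected at low levels: in the populations the medians of Cd68, Csf1r and Lyz2 were 3.44, 2.08 and 2.68 CPM, with no library at 0, and in the clones Kdr reached 4.39 CPM, Vwf 2.80 CPM, Cdh1 2.02 CPM and Cldn4 1.63 CPM. Their part in the levels of the 9 genes was not tested.

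Compared per kilobase of exon, the members covered a wide range in the EV populations with Ad-GFP, whose floxed allele was left in place. Timp2 was highest at 1101 ± 260 CPM per kb (mean ± SD, n = 2), followed by Mmp2 at 618 ± 164 and Timp1 at 475 ± 125. The ranges of Mmp2 (502 to 734) and Timp1 (387 to 563) overlapped, so their order is not set by these libraries. Next came Mmp3 at 167 ± 13.7 and Mmp14 at 137 ± 43.2 CPM per kb, which also overlapped and exchanged places when the longest transcript was used as the length. Timp3 stood at 23.7 ± 7.67 CPM per kb. Mmp13 at 3.50 ± 0.331, Mmp9 at 1.01 ± 0.104 and Mmp10 at 0.0425 ± 0.0601 closed the list. Timp3 was thus the lowest of the 3 TIMPs, and over the 20 populations it had the largest spread of the 9 members (SD of log2 CPM 1.25, followed by Mmp9 with 0.75).

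**Figure D1:**
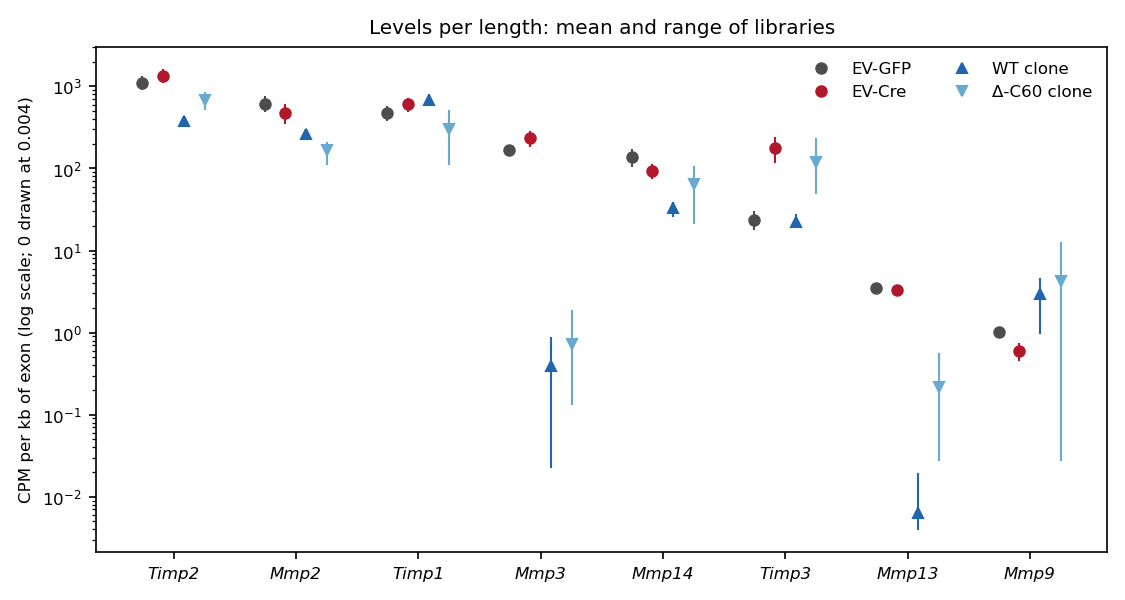
Levels of 8 members per kilobase of exon union on a log axis, as the mean (symbol) and range (line) of the libraries of 4 groups: EV with Ad-GFP and with Ad-Cre (2 libraries each), WT clones and Δ-C60 clones (3 libraries each). Timp2, Mmp2 and Timp1 lead in the populations, Timp3 stands higher in EV with Ad-Cre than with Ad-GFP, and Mmp3 and Mmp13 are far lower in these clones than in these populations.

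Timp3 rose with Ad-Cre in the EV populations. It was at 149 and 238 CPM with Ad-GFP and at 977 and 1916 CPM with Ad-Cre. Both Ad-Cre libraries lay above both Ad-GFP libraries. The change was 2.90 on the log2 scale (SE 0.482, 95% interval 1.86 to 3.95, adjusted p = 0.00188), or 7.48-fold. Timp3 was the single member called, of 8 tested, where a call meant an adjusted p under 0.05 and a log2 fold change beyond 1. Of all 13805 genes tested in the populations, 3.28% were called higher in this comparison. The median change of the 8 members was 0.10 on the log2 scale, against 0.00036 over all genes. Mmp10 could not be tested, since its counts did not pass the filter.

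The Timp3 change was also measured in the populations with introduced NELFB. With WT, Timp3 was at 180 and 155 CPM with Ad-GFP and at 313 and 385 CPM with Ad-Cre, a change of 1.06 (SE 0.454, adjusted p = 0.784). No member was called there, and 0.0217% of all genes were; at an unadjusted p under 0.05 there were 3 members (Timp3, Mmp9 and Mmp13), and DESeq2 also called 0. The Ad-Cre libraries nevertheless lay above the Ad-GFP libraries. With MT486, Timp3 went from 162 and 270 CPM to 445 and 731 CPM, a change of 1.44 (SE 0.458, adjusted p = 0.13), in a comparison where edgeR called 0 of the 8 members and 1.46% of all genes. DESeq2 called Timp3 there (adjusted p = 0.0231) and 2.64% of all genes, and the unadjusted p was under 0.05 for 2 members (Timp3 and Mmp9).

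With MT194, Timp3 stood at 172 and 305 CPM with Ad-GFP and at 768 and 1478 CPM with Ad-Cre. The 2 ranges did not overlap, and Timp3 was the 1 member called higher (2.23, SE 0.470, adjusted p = 0.0167), against 1.2% of all genes called higher. This call was lost without Ad-Cre replicate 2 (adjusted p = 0.107), without Ad-GFP replicate 1 (adjusted p = 0.167) and when the 4 MT194 libraries were fitted alone (adjusted p = 0.251). With DMT, Timp3 stood at 121 and 150 CPM with Ad-GFP and at 757 and 1237 CPM with Ad-Cre. This change of 2.88 (SE 0.482, adjusted p = 0.00231) stood beside 2.90 in EV, and Timp3 was again the 1 member called higher, beside 2.61% of all genes.

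Timp3 was thus higher with Ad-Cre in 5 of 5 constructs with no overlap, as was the case for 4.74% of all genes. Within each replicate number the ratio of Ad-Cre to Ad-GFP was 6.54 and 8.06 in EV, 6.27 and 8.26 in DMT, 4.45 and 4.85 in MT194, 2.75 and 2.71 in MT486, and 1.74 and 2.49 in WT. The replicate numbers stand for 2 independent experiments, and replicate 2 lay above replicate 1 in 9 of 10 groups for Timp3. With the replicate block in the fit, which takes out that shared difference, Timp3 was also called in WT (1.01, adjusted p = 0.0222) and in MT486 (1.45, adjusted p = 0.000619), where 0.869% and 4.24% of all genes were called with the block. Bulk RNA does not separate fewer cells that carry a transcript from less of it per cell, and this holds for every comparison here.

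**Figure D2:**
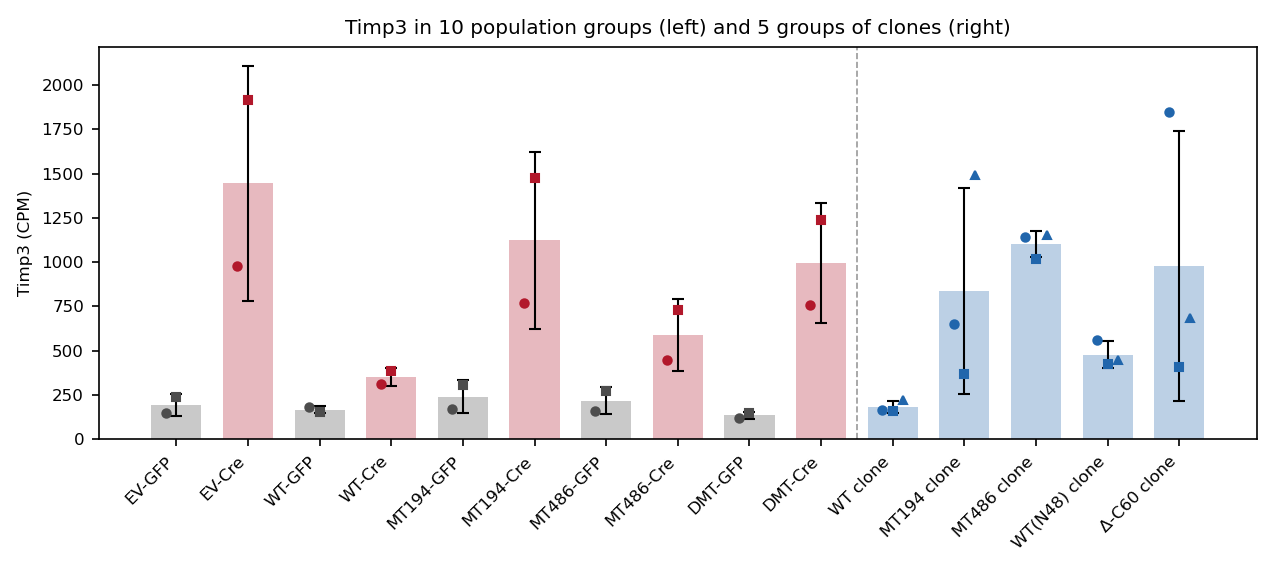
Timp3 in CPM in each library (points; circle, square and triangle are replicates 1, 2 and 3), with bars for the group mean and error bars for 1 SD, in 10 population groups (n = 2) and 5 groups of clones (n = 3). The Ad-Cre groups stand above their Ad-GFP partners in 5 of 5 constructs, from 349 CPM in WT to 1446 CPM in EV, and the 3 WT clones lie below the other 12 clones.

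The WT and the mutant populations were also compared with EV under the same virus; these comparisons share the 2 EV libraries of that virus. With Ad-Cre, Timp3 was lower in WT than in EV by 2.05 on the log2 scale (SE 0.466, adjusted p = 0.0191), the 1 member called there by an adjusted p under 0.05 and a log2 change beyond 0.5, beside 3.48% of all genes called lower. The call was lost when EV replicate 2 (adjusted p = 0.182), WT replicate 1 (0.162) or WT replicate 2 (0.11) was left out, and when the 4 libraries were fitted alone (0.0537). In MT486 the difference from EV was -1.30 (SE 0.456, adjusted p = 0.243), with no overlap between the groups; it was called with the replicate block (-1.27, adjusted p = 0.00296), as were 8.95% of all genes. In MT194 and DMT the differences were -0.37 (95% interval -1.34 to 0.61) and -0.54 (95% interval -1.51 to 0.44). No member was called in MT194, MT486 or DMT against EV without the block, where 0.225%, 0.362% and 0.00724% of all genes were; DESeq2 also called 0, and Timp3 in MT486 was the 1 value with an unadjusted p under 0.05 (0.0138).

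With Ad-GFP, where the floxed allele was left in place, Timp3 lay between 121 and 305 CPM in the 10 libraries of the 5 constructs, and edgeR and DESeq2 called 0 members against EV. The share of all genes called was 0 in WT, MT194 and DMT and 0.00724% in MT486. Across these 4 comparisons 1 value had an unadjusted p under 0.05, Mmp9 in DMT (1.26, unadjusted p = 0.0132, adjusted p = 1), which stood at 6.39 and 10.7 CPM against 3.83 and 3.32 CPM in EV.

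Whether the Cre effect itself differed from that in EV was tested as an interaction. For Timp3 the difference was -1.84 in WT (SE 0.641, unadjusted p = 0.0132, adjusted p = 0.255) and -1.46 in MT486 (SE 0.639, unadjusted p = 0.04, adjusted p = 0.947). No member was called in the 4 interactions by edgeR or DESeq2, where 0.681% (WT) and 0.00724% (each mutant) of all genes were. With the replicate block the Timp3 difference was called in WT (-1.86, SE 0.318, adjusted p = 0.00197), where 17.3% of all genes were, and in MT486 (-1.43, SE 0.317, adjusted p = 0.0317), where 2.96% were. For Mmp9 the DMT difference was -1.56 (SE 0.647, unadjusted p = 0.0311, adjusted p = 1) and with the block -1.50 (SE 0.406, adjusted p = 0.62).

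Mmp9, gelatinase B, was scarce in the populations, at 0.606 to 10.7 CPM, or 16 to 296 reads a library. In DMT it fell from 6.39 and 10.7 CPM with Ad-GFP to 1.53 and 1.87 CPM with Ad-Cre. The groups did not overlap, and the change of -2.33 (SE 0.459, adjusted p = 0.0062) made it the 1 member called lower there, beside 2.69% of all genes. The call was lost without Ad-Cre replicate 1 (adjusted p = 0.0654) or Ad-GFP replicate 2 (adjusted p = 0.0696). In EV the values were 3.83 and 3.32 CPM with Ad-GFP against 1.62 and 2.59 CPM with Ad-Cre (-0.76, SE 0.463, adjusted p = 0.328).

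Mmp9 lay lower with Ad-Cre without overlap in 4 of 5 constructs (EV, WT, MT486 and DMT), as 11.9% of all genes did in at least 4 of 5; it overlapped in MT194, where it was at 1.62 and 2.29 CPM with Ad-GFP and 0.606 and 2.17 CPM with Ad-Cre. Within replicate numbers it was lower with Ad-Cre in 10 of 10 pairs, MT194 included, at 0.176 to 0.947 of the Ad-GFP level, as were 14.9% of all genes. With the replicate block it was called lower in WT (-1.11, adjusted p = 0.0403) and in MT486 (-1.10, adjusted p = 0.0106) as well as in DMT (-2.30, adjusted p = 4.3e-06). Mmp9 is thus the member that moved in the direction opposite to Timp3 where it was called.

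Mmp3, stromelysin 1, cuts many matrix proteins and activates other proMMPs. No comparison of populations called it. In EV it stood at 284 and 319 CPM with Ad-GFP and 337 and 507 CPM with Ad-Cre (0.49, SE 0.512, adjusted p = 0.613). In WT the Ad-Cre libraries were at 212 and 256 CPM, below the Ad-GFP libraries at 292 and 369 CPM (-0.50, adjusted p = 1). The widest spread within a group was in MT194 with Ad-Cre, at 142 and 519 CPM, and its change of 0.98 (SE 0.516, adjusted p = 0.392) became -0.24 without that group's replicate 2.

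Mmp13, the collagenase of the cluster, was measured at 2.94 to 13.3 CPM in the populations. In WT it was at 11.0 and 13.3 CPM with Ad-GFP and at 4.72 and 4.68 CPM with Ad-Cre, a change of -1.37 (SE 0.482, unadjusted p = 0.0141, adjusted p = 0.609). In EV it was at 9.98 and 8.73 CPM with Ad-GFP and 8.15 and 9.42 CPM with Ad-Cre, a change of -0.09. Mmp10 had 0 to 4 reads in each population library and no read in 3 of 20. The 2 libraries of a group held 2 to 6 reads together, too few to pass the filter, so Mmp10 was not compared.

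The abundant members Mmp2, Mmp14, Timp1 and Timp2 were not called in any of the 5 Cre effects. Mmp2 stood at 1693 and 2475 CPM in EV with Ad-GFP and at 1200 and 1985 CPM with Ad-Cre (-0.39, 95% interval -1.48 to 0.70). Mmp14, the membrane-type activator of proMMP2, stood at 632 and 997 CPM with Ad-GFP and 455 and 661 CPM with Ad-Cre (-0.55, 95% interval -1.48 to 0.39). In both genes the groups overlapped. The intervals, from the fit without the replicate block, leave room for changes of more than 1 on the log2 scale. Within replicate numbers the EV ratios of Ad-Cre to Ad-GFP were 0.709 and 0.802 for Mmp2 and 0.719 and 0.663 for Mmp14. Over the 5 constructs Mmp14 was lower with Ad-Cre in 9 of 10 pairs and Mmp2 in 6 of 10. Of all genes, 14.9% were lower in 10 of 10 pairs, which is a stricter count, and the shares at 9 or 6 of 10 were not counted.

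Timp1, an inhibitor of secreted MMPs, stood at 343 and 500 CPM in EV with Ad-GFP and at 443 and 626 CPM with Ad-Cre (0.34, 95% interval -0.50 to 1.18). Timp2 stood at 3571 and 5005 CPM with Ad-GFP and 4365 and 6175 CPM with Ad-Cre (0.30, 95% interval -0.67 to 1.27). Across the 5 constructs the Timp1 changes lay between 0.13 (WT) and 0.63 (MT194), and those of Timp2 between -0.14 (WT) and 0.64 (MT194). Their size stayed under the threshold of 1, and the adjusted p was above 0.05 for each in the fit without the block. Within replicate numbers Timp1 was higher with Ad-Cre in 10 of 10 pairs, by a ratio of 1.06 (WT) to 1.74 (MT194), as were 13.5% of all genes. With the block its adjusted p was 0.0462 in EV (0.35), 0.00355 in MT194 (0.59) and 0.00316 in DMT (0.56), still under the size threshold. Of these 4 genes Mmp14 gained a call against EV with the block, in MT194 with Ad-Cre (0.54, adjusted p = 0.0156; 0.60 and adjusted p = 0.796 without it), where 6.22% of all genes were called.

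**Figure D3:**
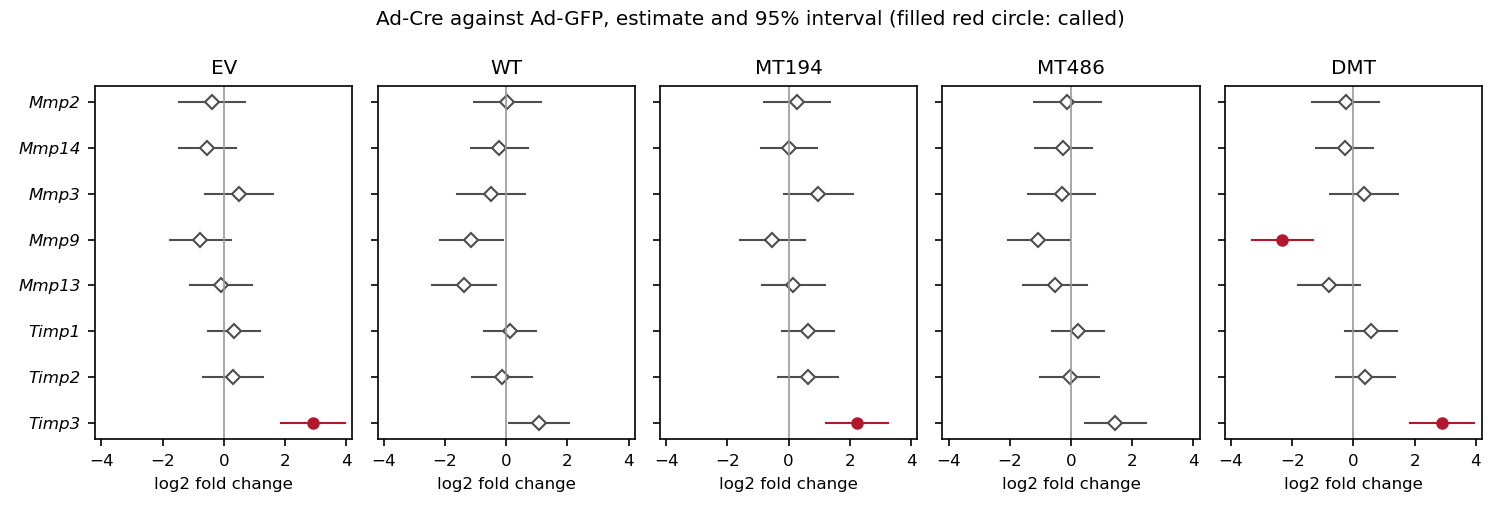
Log2 fold change of Ad-Cre against Ad-GFP for 8 members in the 5 constructs, with 95% intervals from the fit to all 20 populations (x axis, log2 units; filled red circles were called, open diamonds were not). Timp3 is called in EV, MT194 and DMT and Mmp9 in DMT; the intervals of Mmp2, Mmp14, Timp1 and Timp2 include 0 in each construct.

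A difference between the 2 experiments ran through these genes. Replicate 2 lay above replicate 1 in 10 of 10 groups for Mmp2, Mmp3, Mmp14, Timp1 and Timp2, where 22.8% of all genes did so, in 9 of 10 for Mmp9 and Timp3, and in 6 of 10 for Mmp13. The median ratio of replicate 2 to replicate 1 was 1.50 for Mmp2, 1.50 for Mmp14, 1.45 for Timp1, 1.42 for Timp2, 1.38 for Mmp3 and 1.64 for Timp3. It was highest in MT194 with Ad-Cre for 7 of the 8 members, reaching 3.66 for Mmp3, and in EV with Ad-Cre for Timp3. Reads outside annotated genes moved with the experiment: their median share was 14.6% (Ad-Cre) and 13.9% (Ad-GFP) in replicate 1 and 15.6% and 18.2% in replicate 2. Their part in the levels was not tested.

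**Figure D4:**
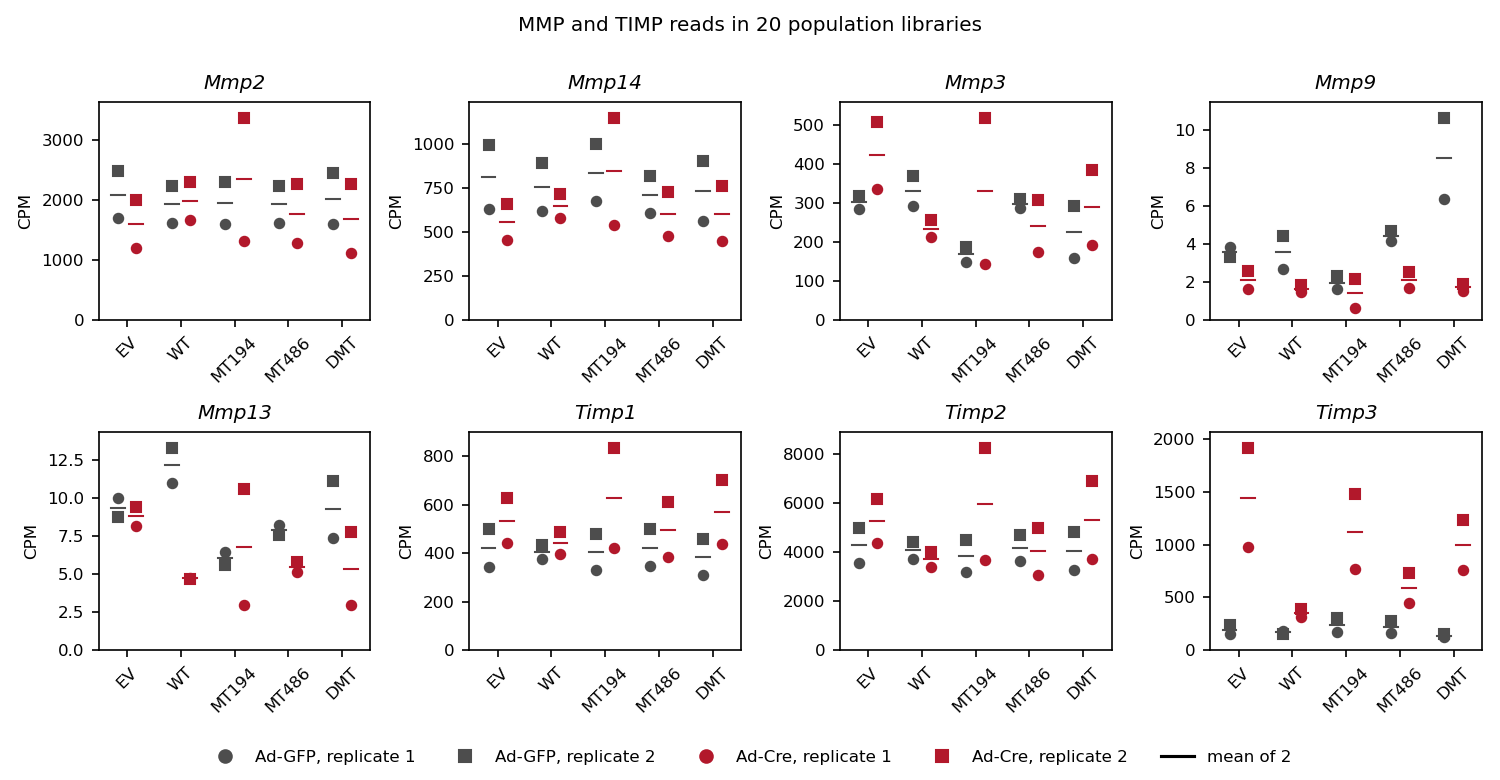
CPM of 8 members in the 20 population libraries by construct (dark grey, Ad-GFP; red, Ad-Cre; circles, replicate 1; squares, replicate 2; short lines, mean of the 2; each panel has its own linear axis from 0). The squares lie above the circles for Mmp2, Mmp14, Mmp3, Timp1 and Timp2 in each group, and the red and grey points of Timp3 do not overlap within any construct.

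Over the 20 populations the pairs of members most alike were Mmp2 with Mmp14 (Pearson r = 0.95 of log2 CPM) and Timp1 with Timp2 (r = 0.94), values that share the replicate difference above. Timp3 had r = 0.75 with Timp1, 0.61 with Timp2, 0.04 with Mmp2 and -0.58 with Mmp9. Over 11484 genes averaging 50 counts or more, those most like Timp3 were Actn1 (r = 0.98), which encodes the actin crosslinker alpha-actinin 1, Nop56 (0.98), a nucleolar protein gene, and Peak1 (0.98). Those most like Timp2 were Cxcl12 (0.99), a chemokine gene, Tmem260 (0.98) and Ltbp3 (0.98), a binding protein of latent TGF-beta. For Timp1 they were Bgn (0.98), the proteoglycan biglycan, Mcfd2 (0.97) and Tpbg (0.97).

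For Mmp2 the 3 genes were Ssr4 (0.98), Fkbp9 (0.98) and Atp6v0e (0.97), and for Mmp14 Nucb1 (0.98), Smo (0.97) and Smpd1 (0.97). Mmp3, Mmp9 and Mmp13 had looser partners. For Mmp3 they were Cp (0.91), which encodes ceruloplasmin, Cxcl5 (0.89) and Ctso (0.88), for Mmp9 Kif3a (0.91), Ikbke (0.90) and Fn3k (0.89), and for Mmp13 Gm2a (0.89), Rom1 (0.86) and Endov (0.85). Each r rests on 20 libraries that share 2 experiments and 2 viruses.

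Of 18 further MMP and TIMP genes, 11 could be tested in the populations, and 1 was called higher in EV after Ad-Cre: Mmp27, of the chromosome 9 cluster, from 2.10 to 5.24 CPM on average (1.32, adjusted p = 0.0342), where 3.28% of all genes were called higher. It was called higher in DMT too (1.32, adjusted p = 0.0351), and lower in WT than in EV with Ad-Cre (-1.41, adjusted p = 0.0359). The median change of the 11 in EV was 0.25, that of all genes 0.00036.

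Among 22 genes of MMP activation, surface partners and other inhibitors, 18 were tested, and the list's median change in EV was 0.18. Plaur, the urokinase receptor gene, was called higher in EV, from 23.3 to 75.3 CPM (1.69, SE 0.470, adjusted p = 0.0319). It was also called higher in DMT (1.83), and lower in WT than in EV with Ad-Cre (-1.67, adjusted p = 0.0463). Of all genes, 3.28% were called higher in EV, 2.61% higher in DMT and 3.48% lower in WT than in EV.

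Of 33 ADAM and ADAMTS genes, which encode proteases of the kind TIMP3 inhibits, 28 were tested. In EV 1 rose and 1 fell: Adamts5, an aggrecanase gene, rose from 319 to 1151 CPM (1.85, adjusted p = 0.0306), and Adamts3, a procollagen protease gene, fell from 1.22 to 0.274 CPM (-2.13, adjusted p = 0.043), beside 3.28% of all genes called higher and 3.24% lower. The median of the 28 was -0.49. In DMT Adamts5 rose (1.77, adjusted p = 0.0419) and Adamts14 fell from 46.6 to 13.1 CPM (-1.84, adjusted p = 0.018). Of all genes, 2.61% were called higher and 2.69% lower in DMT. None of the 28 was called in WT, MT194 or MT486, where 0.0217%, 2.48% and 1.46% of all genes were.

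Of the 24 matrix genes, from collagens to fibronectin, 24 were tested, with a median of -0.12 in EV. Thbs1, which encodes the matrix protein thrombospondin 1, rose from 331 to 1876 CPM (2.50, SE 0.471, adjusted p = 0.00413), and Eln, the elastin gene, fell from 5.90 to 1.20 CPM (-2.29, adjusted p = 0.00862); these were the 2 called, beside the same shares of all genes. Thbs1 was called higher in MT194 (2.15), MT486 (2.04) and DMT (2.57) as well, and Eln lower in DMT (-1.72). Of all genes, 1.2% were called higher in MT194, 0.732% in MT486 and 2.61% in DMT, and 2.69% lower in DMT. In WT none of the 24 was called, and 0.0217% of all genes were.

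Smooth muscle and myofibroblast markers also rose with Ad-Cre. Of 7 listed, 4 were tested and 3 rose in EV: Acta2, smooth muscle actin (2.93, adjusted p = 2.02e-05), Cnn1, calponin 1 (2.28, adjusted p = 0.000162), and Tagln, transgelin (2.22, adjusted p = 0.000266). Acta2 and Cnn1 also rose in WT (1.77 and 1.84), and all 3 rose in MT194, MT486 and DMT. The changes of Timp3, Cnn1 and Tagln were 2.90, 2.28 and 2.22 in EV and 1.06, 1.84 and 1.41 in WT. They were 2.23, 2.46 and 2.22 in MT194, 1.44, 3.73 and 2.48 in MT486 and 2.88, 3.68 and 2.75 in DMT. Timp3 was not called in WT or MT486, and Tagln was not called in WT. The share of all genes called higher was 3.28% in EV, 0.0217% in WT, 1.2% in MT194, 0.732% in MT486 and 2.61% in DMT. The summed level of the list was 54.7 to 90.1 CPM in the 10 Ad-GFP libraries, 291 and 318 CPM in EV with Ad-Cre and 165 and 166 CPM in WT with Ad-Cre. With Ad-Cre it was 397 and 405 CPM in MT194, 313 and 429 CPM in MT486 and 355 and 406 CPM in DMT. Tagln or Acta2 was the most abundant gene of the list in every population group, the muscle regulator Myocd had no read in any population, and Myh11 reached at most 0.488 CPM. The part of these cells or of this programme in the Timp3 levels was not tested.

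Of the 13 fibroblast markers 12 were tested; S100a4 fell in EV from 52.2 to 18.9 CPM (-1.47, adjusted p = 0.00171), the 1 called beside 3.24% of all genes called lower, and the list's median was -0.57. It was higher in WT (1.58) and in MT486 (1.46) than in EV with Ad-Cre. Of the 8 macrophage, 7 endothelial and 7 epithelial markers, 3, 2 and 1 passed the filter and none was called in a Cre effect. Their summed levels in the populations were at most 14.4, 1.69 and 1.29 CPM, with Cd68, Csf1r or Lyz2, Vwf or Tek, and Cdh1 as the most abundant genes.

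In the clones, Timp3 was lowest in the WT group. It stood at 164, 161 and 221 CPM in the WT clones, 650, 369 and 1490 CPM in the MT194 clones, 1142, 1019 and 1151 CPM in the MT486 clones, 562, 423 and 448 CPM in the WT(N48) clones and 1846, 407 and 684 CPM in the Δ-C60 clones. The highest WT clone lay below the lowest of the other 12. How many of all genes separate clone groups without overlap was not counted, here or for Timp2 and Timp1 below. The MT486 clones were close together, and the MT194 and Δ-C60 clones were not. MT486 clones 1 and 2 differed less than any other pair of 1 group (chi-square per degree of freedom 5.06, next 32.4). Whether they are separate colonies was not tested.

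Against the WT clones, Timp3 was called higher in the MT194 clones (2.20, SE 0.534, adjusted p = 0.0487) and in the Δ-C60 clones (2.43, SE 0.539, adjusted p = 0.0222). It was the 1 member called in each, beside 0.885% and 3.69% of all 13223 genes tested in the clones. Between the Δ-C60 and WT(N48) clones, which both carried pBabe, no member and 0% of all genes were called. The WT clones carried pLenti, so vector and construct cannot be told apart in any difference of Δ-C60 or WT(N48) clones from the WT clones. In the MT486 clones the difference was 2.60 (SE 0.542, unadjusted p = 0.000364, adjusted p = 0.164), where edgeR called none of the 13223 genes; DESeq2 called Timp3 (adjusted p = 0.000168) and 0.839% of all genes, and Timp3 was the 1 member with an unadjusted p under 0.05. In the WT(N48) clones it was 1.39 (SE 0.521, adjusted p = 0.153), where none of the 8 members and 1.47% of all genes were called; 4 members had an unadjusted p under 0.05, and DESeq2 called 3 members (Timp3, Timp1 and Mmp13) and 4.91% of all genes.

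Without both WT clones whose Nelfb was low (1 and 3), the single WT clone left stood at 161 CPM of Timp3. The differences were then 2.36 (MT194, adjusted p = 0.362), 2.78 (MT486, adjusted p = 0.892), 2.58 (Δ-C60, adjusted p = 0.348) and 1.55 (WT(N48), adjusted p = 0.669), each in the same direction and none called, with 1 library assumed to vary like the other groups. Leaving out any 1 WT clone also ended both calls (adjusted p of 0.132 to 0.154 for MT194 and 0.071 to 0.091 for Δ-C60). The call in MT194 was further lost without MT194 clone 1 (0.128) or 3 (0.113), when only the groups compared were fitted (0.0574) and with no filter on low counts (0.0709); for the Δ-C60 clones it was lost when only the groups compared were fitted (0.0965).

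Timp2 was lowest in the WT clones too, at 1438, 1424 and 1596 CPM, against 1800 to 3752 CPM in the other 12 clones. Its differences had an adjusted p under 0.05 in the MT194 clones (0.94, SE 0.226, adjusted p = 0.0471) and the Δ-C60 clones (0.82, SE 0.225, adjusted p = 0.042) but stayed under the fold threshold of 1; without MT194 clone 3 the first became a call (1.08, adjusted p = 0.0394). Without WT clones 1 and 3 they were 0.99 (adjusted p = 0.354) and 0.86 (adjusted p = 0.389). Timp1 went the other way. It stood at 702, 540 and 565 CPM in the WT clones, 296, 313 and 156 CPM in the WT(N48) clones (-1.24, SE 0.434, adjusted p = 0.131) and 101, 450 and 247 CPM in the Δ-C60 clones (-1.18, SE 0.434, adjusted p = 0.103). In both cases the groups did not overlap, and neither passed the test; DESeq2 called Timp1 lower in both (adjusted p = 0.0402 and 0.04), beside 8.85% of all genes in the Δ-C60 comparison. Without WT clones 1 and 3 the Timp1 differences were -1.10 (adjusted p = 0.669) and -1.05 (adjusted p = 0.516).

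Mmp2 lay at 792 to 1001 CPM in the WT clones and at 625, 379 and 682 CPM in the Δ-C60 clones (-0.65, SE 0.201, adjusted p = 0.0621). Mmp14 lay at 223, 155 and 207 CPM in the WT clones, and its 3 Δ-C60 clones ranged from 130 to 617 CPM (0.99, SE 0.391, adjusted p = 0.124). Without WT clones 1 and 3 these were -0.63 (adjusted p = 0.418) and 1.29 (adjusted p = 0.442). Without Δ-C60 clone 2, Mmp14 (1.40, adjusted p = 0.00374) and Timp1 (-1.79, adjusted p = 0.0171) were called against the WT clones. Leaving out 1 library at a time gave 93 to 1173 genes called in this comparison, against 711 with all libraries. No member was called between Δ-C60 and WT(N48), MT486 and MT194, MT194 and WT(N48) or MT486 and WT(N48) clones, where 0%, 0.28%, 3.24% and 0.272% of all genes were called; DESeq2 called 0 members too, and 1, 2, 0 and 1 members had an unadjusted p under 0.05. The 8 comparisons of clones share groups and are not independent of each other.

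The proteases of the chromosome 9 cluster were silent or nearly so in most clones. Mmp3, at 142 to 519 CPM in each of the 20 populations, stood under 5 CPM in 12 of 15 clones and had at most 3.26 CPM there. The exceptions were MT194 clone 2 at 110 CPM (2311 reads), WT(N48) clone 2 at 35 CPM and WT(N48) clone 3 at 6.41 CPM. Mmp13 stood under 5 CPM in 14 of 15 clones, with no read in 3; the exception was WT(N48) clone 2 at 12.3 CPM, followed by MT194 clone 2 at 2.66 CPM. Both genes thus had their highest clones in the same 2 colonies, in the reverse order.

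These single clones set the group values. The difference in Mmp3 between MT194 and WT clones was 5.71 (SE 2.14, adjusted p = 0.149) and became -0.26 without MT194 clone 2; without WT clones 1 and 3 the WT clone left had 0.0415 CPM of Mmp3, too little to give a fold, and it had no read of Mmp13. In Mmp13 the WT(N48) group had a mean of 4.32 ± 6.91 CPM (SD, n = 3). DESeq2 called Mmp3 and Mmp13 higher in the MT194 clones, where it called 3.67% of all genes, and Mmp13 in the WT(N48) clones; edgeR called neither. Mmp10 had no read in 10 of 15 clones and at most 2.

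The neighbours Mmp8, Mmp27, Mmp12 and Mmp7 together held 70 to 329 reads in each population library. In the clones they held 174 reads in MT194 clone 2 and 0 to 8 reads in each of the other 14. Mmp12 and Mmp7, at 12 to 92 and 0 to 10 reads in the populations, had no read in 14 and 15 of 15 clones. Dcn, the decorin gene, showed how far clones differ in other fibroblast genes, with 1195 to 6166 CPM in the populations and 0.494 to 673 CPM in the clones. Populations and clones were made and normalized separately, and time in culture and cloning cannot be told apart. How many of all genes left their population range in the clones was not counted. The WT, MT194 and MT486 clones carried pLenti, as the populations did, and Mmp3 was under 5 CPM in 8 of these 9. The part of the vector in these levels was not tested.

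**Figure D5:**
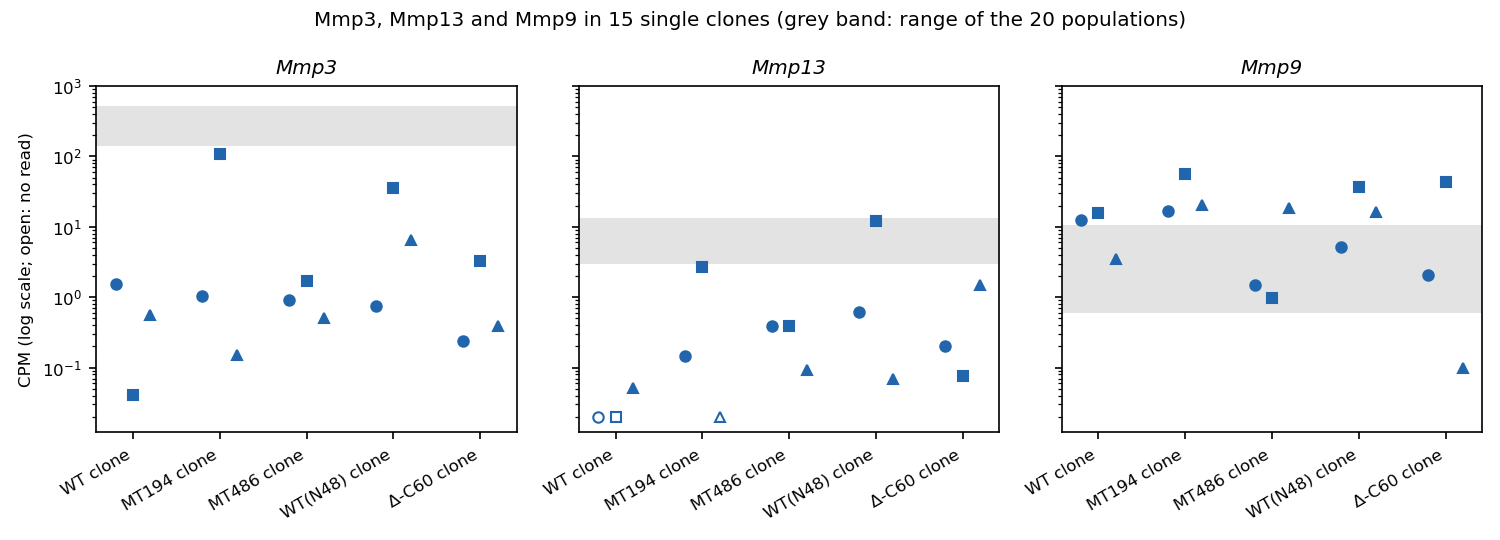
CPM of Mmp3, Mmp13 and Mmp9 in the 15 single clones on a log axis (circle, square and triangle are clones 1, 2 and 3; open symbols at the bottom mark clones with no read), with the range of the 20 populations as a grey band. Mmp3 lies below the band in 15 of 15 clones and Mmp13 in 14 of 15, while Mmp9 lies above it in several clones. The share of all genes with clones outside the population range was not counted.

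Mmp9, on chromosome 2, was detected in each of the 15 clones. It stood at 12.4, 15.8 and 3.50 CPM in the WT clones, 16.9, 55.7 and 20.2 CPM in the MT194 clones, 1.48, 0.985 and 18.4 CPM in the MT486 clones, 5.17, 37.3 and 16.2 CPM in the WT(N48) clones and 2.05, 43.2 and 0.0987 CPM in the Δ-C60 clones. Clones of 1 group spread widely, with 2 reads in Δ-C60 clone 3 and 1174 in MT194 clone 2, and no comparison called Mmp9. The most Mmp9 and the most Mmp3 were in the same clone, MT194 clone 2, but over the 15 clones r between both genes was 0.46.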

How the data were processed

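Poly(A) RNA of MEFs was sequenced by the authors as stranded libraries of 50-base single reads, aligned with Bowtie2 to mm10, and counted per gene with HTSeq after low-quality alignments were skipped (SAMtools); versions are not given in the sources used here. Bowtie2 does not place reads across exon junctions, and in the longest transcripts 70.6% (Timp1) to 95.8% (Timp3) of 50-base windows of the 9 members lie within 1 exon. The deposited values are raw counts per gene symbol, 1 file per library; rows that name no gene were left out of library sizes (reads in no feature came to 9.14% to 21.3% of the reads listed).

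Counts were tested with edgeR 4.0.16 (R 4.3.3; limma 3.58.1): TMM scaling, filterByExpr, 1 mean per group, robust quasi-likelihood F test, Benjamini-Hochberg adjustment over all genes, separately for 20 populations (13805 genes) and 15 clones (13223 genes). Calls took an adjusted p under 0.05 and a log2 fold change beyond 1 (Cre effects, clones) or 0.5 (against EV), with no size limit for interactions. CPM used TMM library sizes. On simulated counts 200 genes averaging over 5 CPM were changed by 2 on the log2 scale. The EV comparison recovered 93.5% (13626 genes tested, 4 false calls) and MT194 against WT clones 83.5% (13086 genes tested, 8 false calls). The simulated libraries held no difference between experiments. These shares do not cover smaller changes or scarcer genes, such as Mmp9, under 5 CPM in 18 of 20 populations. In the populations the replicate numbers mark 2 experiments, and samples of 1 number deviated together in 45 of 45 pairs (median r = 0.59). Clone numbers exceeded r of 0.1 in 3 of 30 pairs. Libraries of 1 group differed beyond sampling noise (chi-square per degree of freedom of at least 5.06), so no library was counted as a repeat. The 5.06 is that of MT486 clones 1 and 2, and the other pairs of clones stood at 32.4 to 349. Whether these MT486 libraries come from separate colonies was not tested. The labels call population replicates biological; p-values measure the spread between these samples.

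Alternatives were DESeq2 1.42.0, its size factors, no filter, the replicate block, fitting only the groups compared, leaving out libraries and other fold thresholds. Named genes were the 9 members, Nelfb, genes of the lists called in a Cre effect (at most 6 a list) and the 3 genes most like each member; Syn3, Dcn and genes given as levels were chosen after their values were seen. The members and lists were chosen with earlier results of these data known. The results of 1 listed gene are not reported here. Loci, lengths and overlaps are from GENCODE M21 (GRCm38), and promoter letters from RefSeq (GRCm38.p6), which had entries for 7 of 9 members.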

Additional observations from a re-analysis of the deposited data

How the results depend on the processing

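The rise of Timp3 with Ad-Cre in EV kept its direction and its call under every alternative run. Other calls did not. With DESeq2 the number of members called went from 0 to 1 for the Ad-Cre effect in MT486 and for MT486 against WT clones, from 0 to 3 for WT(N48) against WT clones, and to 3 (MT194) and 2 (Δ-C60) from 1 each against WT clones. With the replicate block it went from 0 to 2 for the Ad-Cre effects in WT and MT486, from 0 to 1 for MT194 and MT486 against EV with Ad-Cre and for the interactions of WT and MT486, and from 1 to 0 for MT194 against WT clones (Timp3, adjusted p = 0.0678 by edgeR), where the numbers do not pair the samples; the block changed no other count of members. It also turned the Mmp14 difference with Ad-Cre in MT194 from 0.012 to -0.042. Fitting only the groups compared took the count from 1 to 0 for the Ad-Cre effect in MT194, for WT against EV with Ad-Cre and for MT194 and Δ-C60 against WT clones, and from 0 to 1 for MT486 against WT clones, WT(N48) against WT clones and MT486 against WT(N48) clones. With no filter MT194 against WT clones went to 0. Without WT clones 1 and 3 together MT194 and Δ-C60 went to 0, and with a fold threshold of 0.5 on the log2 scale both went to 2.

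Leaving out 1 library at a time gave 0 to 1 members for the Ad-Cre effect in MT194 (0 without MT194-Cre 2 or MT194-GFP 1), 1 to 2 in DMT (1 without DMT-Cre 1 or DMT-GFP 2), 0 to 1 for WT against EV with Ad-Cre (0 without EV-Cre 2, WT-Cre 1 or WT-Cre 2), 0 to 1 for MT194 against WT clones and 0 to 3 for Δ-C60 against WT clones (3 without Δ-C60 clone 2). A lone remaining library is then assumed to vary like the other groups. Differences (log2) that changed sign in such runs, none of them called, ranged as follows. With Ad-Cre in EV, Mmp13 ran from -0.20 to 0.0069. In WT, Mmp2 ran from -0.20 to 0.29, Mmp14 from -0.47 to 0.065 and Timp1 from -0.0071 to 0.27. In MT194, Mmp2 ran from -0.56 to 0.79, Mmp3 from -0.24 to 1.63, Mmp9 from -1.68 to 0.15, Mmp13 from -1.02 to 0.81, Mmp14 from -0.63 to 0.46 and Timp2 from -0.064 to 1.10. In MT486, Mmp2 ran from -0.60 to 0.23, Mmp3 from -0.79 to 0.049, Mmp14 from -0.59 to 0.023, Timp1 from -0.14 to 0.53 and Timp2 from -0.44 to 0.26. In DMT, Mmp2 ran from -0.86 to 0.16, Mmp3 from -0.22 to 0.86, Mmp14 from -0.71 to 0.10 and Timp2 from -0.12 to 0.77. In the clones Mmp3 ran from -0.26 to 6.96 for MT194 against WT and from -5.71 to 0.82 for MT486 against MT194. The cause of these changes was not tested.

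The count of all genes called moved by more than 1.5 times in most comparisons. Across the alternatives run, the Ad-Cre effect gave 239 to 1626 genes in EV (900 as reported), 0 to 120 in WT (3), 0 to 744 in MT194 (343), 5 to 586 in MT486 (201) and 353 to 1369 in DMT (733). WT against EV with Ad-Cre gave 173 to 3175 (1018). Against the WT clones, MT194 gave 0 to 485 and WT(N48) 2 to 649 (1.47% of the 13223 genes as reported in each), MT486 gave 0 to 111 (0) and Δ-C60 gave 3 to 1173 (711). With lengths from the longest transcript, or windows within 1 exon (chosen after seeing the data), Mmp3 and Mmp14 changed order in the ranking of levels per length in the population groups other than EV with Ad-Cre and MT194 with Ad-GFP, but not in the clones.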

Other observations

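Beyond the comparisons above, the clones differed in other genes of the families. Mmp16, a membrane-type MMP gene, stood at 19.2 CPM on average in the WT clones and 91.1 CPM in the Δ-C60 clones (2.25, SE 0.629, adjusted p = 0.0464 by edgeR), the 1 gene called among 7 further MMP and TIMP genes tested there. Mmp11, stromelysin 3, was called higher in the MT194 clones than in the WT clones (27.5 to 60.9 CPM; 1.15, SE 0.213, adjusted p = 0.0235). Plat, the tissue plasminogen activator gene, was highest in the MT194 clones, at 558 CPM on average against 275 CPM in WT, 213 CPM in MT486 and 139 CPM in WT(N48) clones, and each of these 3 differences was called. Of all genes, 1.47% were called between MT194 and WT clones, 0.28% between MT486 and MT194 and 3.24% between MT194 and WT(N48). Of the matrix genes, Thbs1 (3.77), Tnc (3.21), Fbln5 (2.81), Fn1 (1.61) and Hspg2 (1.56) were called higher and Spp1 (-1.55) lower in the Δ-C60 clones than in the WT clones, 6 of 23 tested, where 5.38% of all genes were called. The summed smooth muscle markers ranged from 98.6 to 5287 CPM in the 3 Δ-C60 clones; their part in these levels was not tested. Without WT clones 1 and 3, none of the differences from the WT clones in this paragraph was called: Mmp16 stood at 1.52 (adjusted p = 0.531), Mmp11 at 1.02 (0.316), Plat in MT194 at 0.97 (0.386), Thbs1 at 4.09 (0.295), Tnc at 2.79 (0.374), Fbln5 at 2.82 (0.447), Fn1 at 1.40 (0.452), Hspg2 at 1.23 (0.415) and Spp1 at -1.68 (0.271). These comparisons rest on the same 3 WT clones, and the genes of this paragraph were picked from the lists after their values were seen. The Δ-C60 clones carried pBabe and the WT clones pLenti, so vector and truncation cannot be told apart in the Δ-C60 differences. Between the Δ-C60 and WT(N48) clones, which both carried pBabe, 0% of all genes were called.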
